A study of Homo sapiens with 16 samples.

Results

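The genes that set the pace of the G1 phase were followed in human keratinocyte lines in which YAP had been depleted or a constitutively active form of it had been expressed. They were the D-type cyclin genes *CCND1*, *CCND2* and *CCND3*, their partner kinase gene *CDK6*, the E-type cyclin genes *CCNE1* and *CCNE2*, and the CDK inhibitor genes *CDKN1A*, *CDKN1B*, *CDKN2A* and *CDKN2B*. The 10 genes were found by their symbols among the 26229 genes of the count table, and all 10 were among the 14673 genes that passed the count filter. The genes were fixed by name, with earlier results of these data known when they were chosen. Of the 10, 7 were measurable in both lines, while *CCND2*, *CDKN2A* and *CDKN2B* were measurable only in HaCaT. A gene was taken as measurable where it averaged more than 10 counts over the libraries compared, in each line that entered the comparison. Where HaCaT was set against A431 under the same treatment, the average was instead taken over both lines together, so that all 10 entered.

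RNA-seq had been carried out in A431 cells, an epidermoid carcinoma line, and in HaCaT cells, an immortalised keratinocyte line, both grown in DMEM with 10% FCS. Each line gave 1 library with control siRNA (siCTRL), 3 with siRNA against YAP1 (siYAP), 1 with an empty expression vector (EV) and 3 with an expression vector for the constitutively active mutant YAP5SA. In the siRNA arm cells were transfected on 2 occasions 24 h apart and harvested 48 h after the later one. The labels give no siRNA for the vector arm and no vector for the siRNA arm, so that neither arm holds the control of the other, and they give no harvest time for the vector arm. The triplicates carry replicate numbers and are called biological in the methods of the study. The labels do not say that they came from separate cultures, and if they did not, p values measure technical spread only. The design text of the series speaks of triplicates for the siRNA controls as well, the extraction protocol exempts controls from them, and the labels give 1 control library per arm and line, which was followed. With 1 control library in each arm, every comparison against a control took its error from the triplicates.

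Cells commit to division in G1. D-type cyclins bind CDK4 or CDK6 and begin the phosphorylation of the retinoblastoma protein, which frees E2F transcription factors. E2F then raises the E-type cyclins, which activate CDK2 and open S phase. The CIP/KIP inhibitors p21 (*CDKN1A*) and p27 (*CDKN1B*) act mainly on cyclin E-CDK2, whereas the INK4 inhibitors p16 (*CDKN2A*) and p15 (*CDKN2B*) block CDK4 and CDK6 directly. YAP is a co-activator that binds DNA through TEAD factors and is known to promote the proliferation of basal keratinocytes.

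Libraries held between 18115624 and 46791673 read pairs assigned to genes, with a median of 26622174. Levels are given as TMM-scaled CPM (counts divided by library size, on a common scale), in which 3 counts were worth 0.063 to 0.164 CPM. *YAP1* was depleted in both lines, from 94.3 to between 5.04 and 7.0 CPM in A431 and from 254 to between 21.6 and 23.2 CPM in HaCaT. With YAP5SA its reads rose in HaCaT from 423 to 7549, 22250 and 10070 CPM (FDR = 0.00208). In A431 they were 124 CPM with EV and 1495, 3245 and 2940 CPM with YAP5SA (FDR = 0.197), replicate 1 having the least. *EGFR*, known for its high copy number in A431, lay at 750 to 1358 CPM in A431 and 298 to 557 CPM in HaCaT. All 8 keratinocyte and epithelial markers were above 1 CPM in both lines and 0 of 4 leukocyte markers were. The summed level of 6 fibroblast markers was 0.66 to 27.9 CPM and that of 3 endothelial markers 1.18 to 59.2 CPM over all libraries, against 2660 to 8130 CPM for the keratinocyte markers.

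Promoter sequence is shown for the 3 genes with the clearest contrasts below: *CDKN2B* and *CDKN1B*, which fell with YAP5SA in HaCaT, and *CCNE1*, which differed most between siYAP and YAP5SA in that line. Each run is the 250 bases upstream of an annotated start in RefSeq (GRCh38.p14), read 5′ to 3′ on the strand of the gene. The capitals mark a match to the TEAD motif GGAATG, written here in its reverse orientation.
CDKN2B chr9:22009306-22009555 (- strand): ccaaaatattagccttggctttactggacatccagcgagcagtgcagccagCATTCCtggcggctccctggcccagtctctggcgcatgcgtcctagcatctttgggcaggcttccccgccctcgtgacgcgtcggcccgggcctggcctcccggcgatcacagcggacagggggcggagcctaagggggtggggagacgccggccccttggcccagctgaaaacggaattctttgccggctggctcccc
CDKN1B chr12:12717118-12717367 (+ strand): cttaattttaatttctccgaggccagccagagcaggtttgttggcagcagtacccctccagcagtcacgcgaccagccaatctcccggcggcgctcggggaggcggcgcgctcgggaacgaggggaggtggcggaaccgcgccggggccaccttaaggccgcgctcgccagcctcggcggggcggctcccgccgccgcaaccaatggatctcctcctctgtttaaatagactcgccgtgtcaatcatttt
CCNE1 chr19:29811741-29811990 (+ strand): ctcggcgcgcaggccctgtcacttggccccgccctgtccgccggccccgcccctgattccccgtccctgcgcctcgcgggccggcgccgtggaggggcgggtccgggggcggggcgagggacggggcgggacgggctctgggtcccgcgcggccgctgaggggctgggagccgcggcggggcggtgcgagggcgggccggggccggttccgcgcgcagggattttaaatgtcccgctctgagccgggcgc
The *CDKN2B* match begins 199 bases upstream of the start, and neither of the other sequences holds a match. RefSeq promoters were at hand for 7 of the 10 genes, with 11 starts in all, each searched on both strands from 250 bases before to 50 bases after the start. GGAATG was in 2 of the 11, the other being a *CCND3* start with the match 41 bases upstream, and in 14% of all 35116 promoters. The E2F motifs TTTCCCGC and TTTGGCGC were in 0 of the 11, against 1.63% and 0.652% of all promoters, and the AP-1 motif TGACTCA was in 0 of the 11, against 4.95%. Absence of these letters from such a short window says nothing of whether a factor binds the gene.

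Levels of different genes can be compared only per length of transcript, and were divided by the length of the longest protein-coding transcript. Per kilobase, *CCND1* was the most abundant of the 10 in all 8 groups, at 111 to 210 CPM per kb. In A431 the next gene was *CDKN1B* in the siRNA arm (23.2 CPM per kb with siCTRL and 28.5 ± 1.72, SD, n = 3, with siYAP) and *CCND3* in the vector arm (37.6 with EV and 34.5 ± 1.99, SD, n = 3, with YAP5SA). In HaCaT *CDKN2B* came next in the siRNA arm, at 51.2 CPM per kb with siCTRL and 44.5 ± 6.32 (SD, n = 3) with siYAP, but ranked 7 with EV (10.7) and 8 with YAP5SA (4.91 ± 1.19, SD, n = 3). *CCNE1* had the lowest mean or single value of the 10 in all 4 HaCaT groups, at 0.17 to 3.84 CPM per kb. With YAP5SA its range (2.52 to 5.5) overlapped those of *CDKN2A* (3.33 to 5.25) and *CDKN2B* (4.0 to 6.26), so its last place there is not resolved. In HaCaT with YAP5SA the ranges of *CDK6*, *CCNE2* and *CDKN1A* per kb overlapped, as did those of *CCND2*, *CCND3* and *CDKN1B*, so that their order is not resolved.

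**Figure D1:**
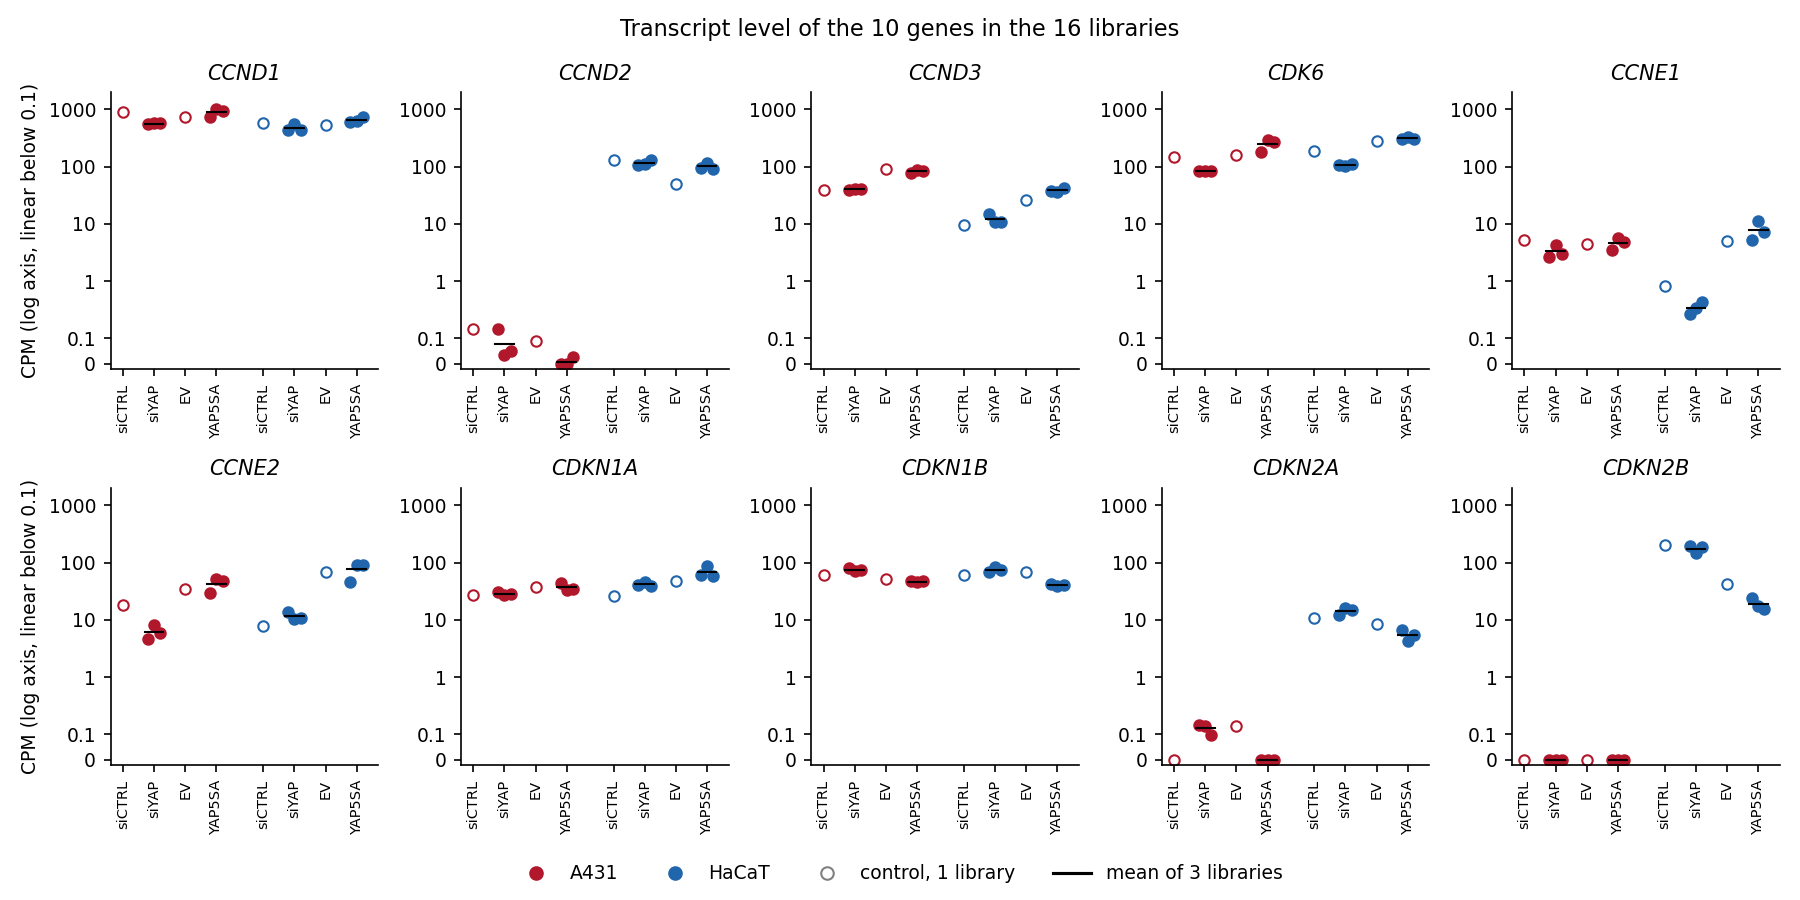
Transcript level in CPM (log axis, linear below 0.1 so that 0 can be drawn) of each gene in every library, A431 in red and HaCaT in blue, by treatment. Open circles are control libraries (1 per group), filled circles treated libraries and the line their mean (n = 3). *CDKN2B* is at 0 in all 8 A431 libraries and at 15.7 to 200 CPM in HaCaT.

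The first question was whether the D-type cyclins and CDK6 follow YAP. *CCND1*, which encodes cyclin D1, fell in A431 when YAP was depleted, from 903 CPM with siCTRL to 542, 584 and 565 CPM with siYAP. All 3 siYAP libraries were below the control and close to each other, with a mean of 0.624 of it (log2 fold change -0.68 ± 0.18, SE, FDR = 0.0464). In HaCaT the level was 568 CPM with siCTRL, against 435, 559 and 440 CPM with siYAP, also below the control in each library, but replicate 2 lay next to it and the test was not passed (-0.25 ± 0.19, FDR = 0.517). Over both lines *CCND1* fell by 0.46 ± 0.13 on the log2 scale (FDR = 0.0347). With YAP5SA it was above EV in every library, at 747, 1020 and 949 against 731 CPM in A431 and at 603, 634 and 726 against 528 CPM in HaCaT, with the same fitted size in each line (0.31 ± 0.19) and no call (FDR = 0.818 and 0.29). The A431 decrease was near the threshold. Its FDR was between 0.0539 and 0.116 when A431 siYAP replicate 1, 2 or 3, A431 YAP5SA replicate 3, HaCaT siYAP replicate 1 or 3, or HaCaT YAP5SA replicate 3 was left out, 0.054 with no count filter and 0.146 with both control libraries as 1 group. Leaving out any of these but the last gave an FDR of 0.0517 to 0.0706 for *CCND1* over both lines.

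*CDK6*, the kinase that D-type cyclins activate, gave the same picture in both lines on depletion. In A431 it fell from 149 CPM to 82.6, 82.5 and 85.0 CPM (-0.83 ± 0.19, FDR = 0.0241), and in HaCaT from 188 CPM to 108, 101 and 111 CPM (-0.82 ± 0.19, FDR = 0.0238). The siYAP means were 0.561 and 0.567 of the controls, the triplicates did not reach the control in either line, and the effects in the lines differed by 0.01 ± 0.28 (FDR = 1). Fitted over both lines the decrease was 0.83 ± 0.14 on the log2 scale (FDR = 0.00197), and it was called in all 20 alternative analyses. Within a line the call needed all 3 siYAP libraries, while the size of the decrease changed little. Without replicate 1, 2 or 3 it was -0.85, -0.83 and -0.85 in A431 (FDR = 0.061, 0.0578 and 0.0653). In HaCaT it was -0.82, -0.78 and -0.85 (FDR = 0.0584, 0.0596 and 0.0539). In A431 the call was also lost when the lines were fitted apart (FDR = 0.0598).

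With YAP5SA, *CDK6* was above EV in all libraries of both lines without a call. In A431 it was at 162 CPM with EV and 178, 287 and 270 CPM with YAP5SA (0.60 ± 0.21, FDR = 0.803). Replicate 1, the YAP5SA library with the lowest *YAP1* level, was also the lowest of its triplicate for *CDK6*. Without that library the difference was 0.78 with an FDR of 0.0129, and the difference of the YAP5SA effect between the lines became -0.63 with an FDR of 0.0343, from -0.45 ± 0.28 (FDR = 0.358) with all libraries. In HaCaT it was at 279 CPM with EV and 305, 322 and 300 CPM with YAP5SA (0.15 ± 0.20, FDR = 0.642). Over both lines the difference was 0.37 ± 0.14 (FDR = 0.162), and 0.46 with an FDR of 0.00826 without A431 YAP5SA replicate 1.

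*CCND2*, encoding cyclin D2, was measurable only in HaCaT. It was at 130 CPM with siCTRL, against 105, 112 and 128 CPM with siYAP (-0.17 ± 0.20, FDR = 0.704, and 0.36 with both control libraries as 1 group). In the vector arm it rose from 49.6 CPM with EV to 94.6, 117 and 91.7 CPM with YAP5SA, 2.04 times the control (1.03 ± 0.22, FDR = 0.0115). The rise rests on the EV library, which was the lowest of the 8 HaCaT libraries, while the siCTRL library was the highest. With both control libraries as 1 group the difference was 0.17 with an FDR of 0.748. *CCND3*, encoding cyclin D3, showed no call against a control in either line. It was at 39.5 CPM with siCTRL, against 39.5, 40.9 and 40.8 CPM with siYAP in A431. In HaCaT it was at 9.40 CPM with siCTRL, against 15.0, 11 and 10.7 CPM with siYAP (0.38 ± 0.20, FDR = 0.304). With YAP5SA it was below EV in each A431 library (77.0, 85.6 and 84.9 against 90.0 CPM, -0.13 ± 0.17, FDR = 0.896) and above it in each HaCaT library (38.0, 36.0 and 42.1 against 26.3 CPM, 0.55 ± 0.18, FDR = 0.0567). The HaCaT difference passed with DESeq2 (FDR = 0.0214), with the likelihood ratio test (0.0343), when 10 counts had to be exceeded by each library (0.04), and without A431 YAP5SA replicate 1 (0.0491), HaCaT siYAP replicate 1 (0.0316) or HaCaT YAP5SA replicate 2 (0.0446). With both control libraries as 1 group the siYAP effects on *CCND3* turned to -0.68 in A431 and -0.56 in HaCaT and the YAP5SA effect in A431 to 0.35, none of them called.

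The E-type cyclins are E2F targets that peak at the entry into S phase. *CCNE2*, encoding cyclin E2, fell in A431 on YAP depletion, from 18.0 CPM to 4.60, 8.07 and 5.84 CPM, 0.343 of the control (-1.55 ± 0.39, FDR = 0.0359). In HaCaT the siYAP libraries, at 13.6, 10.3 and 10.8 CPM, were all above the control at 7.70 CPM, without passing the test (0.59 ± 0.44, FDR = 0.509). The difference between the lines was 2.14 ± 0.60 on the log2 scale and did not pass (FDR = 0.176). The A431 call was lost without A431 siYAP replicate 1 (FDR = 0.0952) or 3 (0.0975), without HaCaT siYAP replicate 3 (0.0506), and with both control libraries as 1 group (0.121). In that last analysis the HaCaT effect turned to -1.71 (FDR = 0.0576), the sign seen in A431, and *CCNE2* was lower over both lines (-1.89, FDR = 0.00946, from -0.48 ± 0.29, FDR = 0.304). With YAP5SA the levels were 29.1, 50.8 and 48.3 CPM against 34.0 CPM with EV in A431 (0.33 ± 0.40, FDR = 0.882) and 46.6, 90.8 and 90.6 CPM against 67.4 CPM in HaCaT (0.17 ± 0.39, FDR = 0.789). In each line replicate 1 was below EV and the others above it. In these bulk libraries, fewer cells in the phase that expresses a cyclin and less transcript per cell cannot be told apart.

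*CCNE1*, encoding cyclin E1, was low throughout. In A431 it was at 5.24 CPM with siCTRL, against 2.67, 4.24 and 3.0 CPM with siYAP. In HaCaT the siYAP libraries held only 7, 7 and 13 counts (0.271, 0.34 and 0.43 CPM) and the siCTRL library 15 counts (0.819 CPM). All siYAP libraries of both lines were thus below their controls, but no call was made in A431 (-0.67 ± 0.43, FDR = 0.387), in HaCaT (-1.22 ± 0.61, FDR = 0.284) or over both lines (-0.94 ± 0.37, FDR = 0.113). With both control libraries as 1 group *CCNE1* passed in HaCaT (-3.06, FDR = 0.00515) and over both lines (-1.80, FDR = 0.00829), the HaCaT EV library standing at 4.94 CPM, 6.02 times the siCTRL library. With YAP5SA it was at 3.44, 5.76 and 4.87 CPM against 4.41 CPM with EV in A431 (0.09 ± 0.44, FDR = 0.983) and at 5.15, 11.2 and 7.17 CPM against 4.94 CPM in HaCaT (0.67 ± 0.44, FDR = 0.32).

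In both lines YAP5SA replicate 1 was the lowest of its triplicate for *CCND1*, *CCNE1* and *CCNE2*, and also for *YAP1*. This coincidence was noticed after the values were seen, and its part in the results was not tested. It did not extend to all genes that YAP5SA libraries of HaCaT held. There *CCND3* was lowest in replicate 2 (36.0 CPM), and *CCND2* (91.7 CPM) and *CDK6* (300 CPM) in replicate 3.

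**Figure D2:**
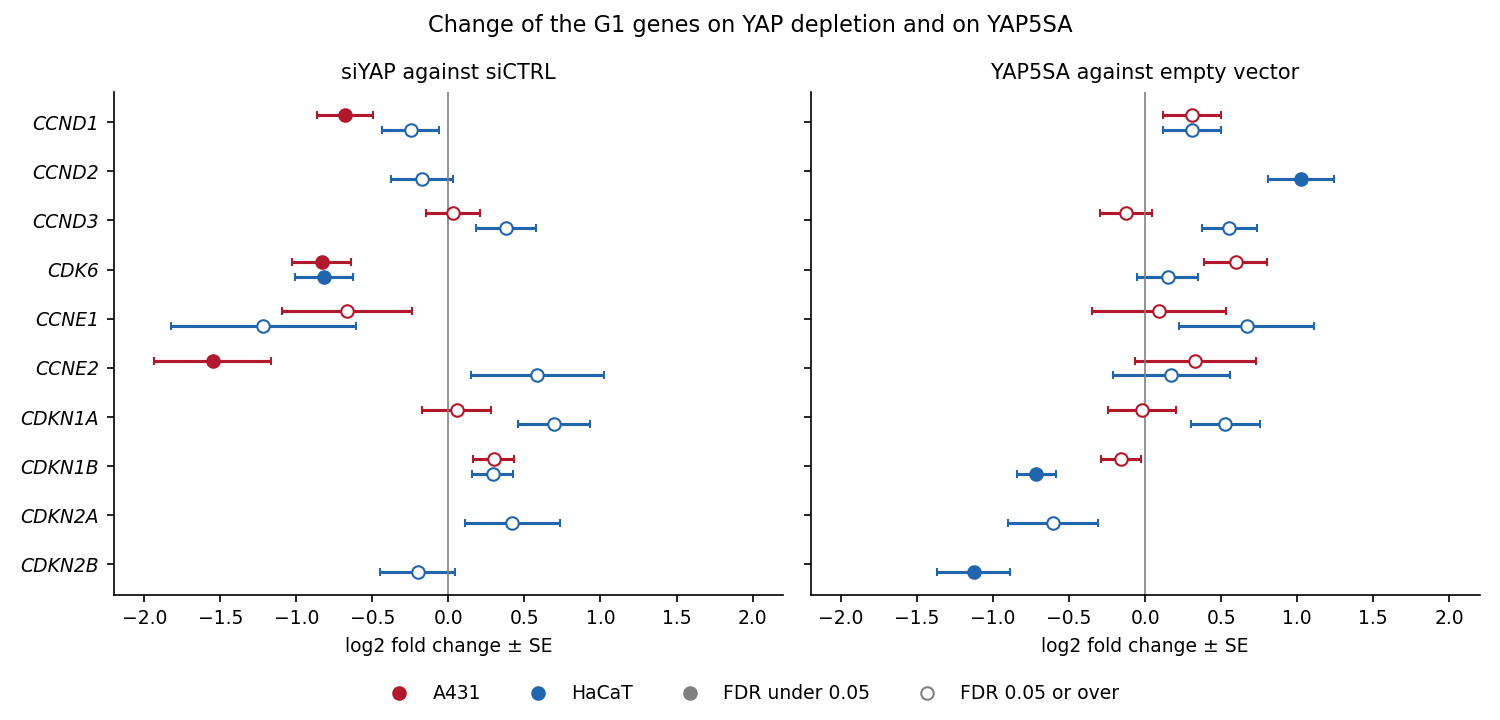
Fitted log2 fold change (x axis, ± SE) of each measurable gene for siYAP against siCTRL and for YAP5SA against empty vector, A431 in red and HaCaT in blue. Filled points had an FDR under 0.05: *CCND1*, *CCNE2* and *CDK6* in A431 and *CDK6* in HaCaT with siYAP, and *CCND2*, *CDKN1B* and *CDKN2B* in HaCaT with YAP5SA. Each value compares 3 libraries with 1.

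Among the CIP/KIP inhibitors, *CDKN1B* (p27) fell with YAP5SA in HaCaT. The level was 67.1 CPM with EV and 42.1, 39.1 and 41.3 CPM with YAP5SA, a tight triplicate at 0.609 of the control (-0.72 ± 0.13, FDR = 0.00638), and the call was kept in all 21 alternatives. In A431 the YAP5SA libraries, at 47.0, 45.0 and 46.9 CPM, were also below EV at 51.6 CPM, by a smaller amount (-0.16 ± 0.13, FDR = 0.852). Over both lines it fell by 0.44 ± 0.09 on the log2 scale (FDR = 0.0366), and the difference between the lines was -0.56 ± 0.19 (FDR = 0.121). The call over both lines did not hold without A431 siYAP replicate 2 or 3, A431 YAP5SA replicate 2 or 3, HaCaT siYAP replicate 3 or HaCaT YAP5SA replicate 3 (FDR from 0.0554 to 0.0798), or with no count filter (0.0593). With the replicate number as a block it was lost as well (-0.43, FDR = 0.148). On depletion *CDKN1B* was above the control in all 6 siYAP libraries, at 80.9, 72.2 and 73.9 against 61.6 CPM in A431 and 68.8, 83.4 and 73.8 against 61.5 CPM in HaCaT. Over both lines this was 0.29 ± 0.10 on the log2 scale with an FDR of 0.0569, just over the threshold. It passed with DESeq2 (0.0344), with more than 10 counts in every library (0.0399), with both control libraries as 1 group (0.0255), and without A431 YAP5SA replicate 1 (0.0493) or HaCaT YAP5SA replicate 1 (0.0481) or 2 (0.0463).

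*CDKN1A* (p21), a target of p53, gave no call against a control. In A431 it was at 27.4 CPM with siCTRL, against 30.7, 26.8 and 27.9 CPM with siYAP, and at 38.1 CPM with EV and 44.4, 33.2 and 34.9 CPM with YAP5SA, so that control and treated values overlapped. In HaCaT it was above the control in every treated library of both arms: 41.3, 45.7 and 38.6 against 25.8 CPM with siYAP (0.70 ± 0.23, FDR = 0.106) and 61.0, 87.1 and 59.2 against 48.0 CPM with YAP5SA (0.53 ± 0.23, FDR = 0.131). The siYAP difference passed without HaCaT YAP5SA replicate 2 (FDR = 0.0351), and the YAP5SA difference passed with both control libraries as 1 group (0.90, FDR = 0.0348).

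The INK4 inhibitors are encoded side by side on chromosome 9, and both were measurable in HaCaT alone. *CDKN2B* (p15) fell there with YAP5SA, from 42.0 CPM with EV to 24.5, 17.5 and 15.7 CPM, 0.457 of the control (-1.13 ± 0.24, FDR = 0.0192), and it was called in all 20 alternatives. On depletion it was at 200 CPM with siCTRL, against 191, 146 and 185 CPM with siYAP (-0.20 ± 0.25, FDR = 0.72, and 0.52 with both control libraries as 1 group). *CDKN2A* (p16 and, from another first exon, p14ARF, which the table holds in 1 row) was at 8.41 CPM with EV and 6.74, 4.28 and 5.53 CPM with YAP5SA, below the control in each library (-0.61 ± 0.30, FDR = 0.188). With siYAP it was above the control in each library, at 12.4, 16.4 and 14.7 against 10.8 CPM (0.42 ± 0.31, FDR = 0.515). The antisense RNA gene *CDKN2B-AS1* overlaps both genes. The sources used here do not state that strand was used in counting, so reads of sense and antisense cannot be told apart there. *CDKN2B-AS1* itself was at 2.51 to 12.7 CPM in HaCaT.

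Counted over the genes, depletion in A431 lowered 3 of the 7 measurable genes (*CCND1*, *CCNE2*, *CDK6*) and raised 0, where 5.60% of all 14673 genes were called. In HaCaT 1 of 10 was lowered (*CDK6*), against 5.66% of all genes. Over both lines 2 of 7 were lowered (*CCND1*, *CDK6*), against 13.0%. With YAP5SA in HaCaT 1 of 10 rose (*CCND2*) and 2 fell (*CDKN1B*, *CDKN2B*), against 13.6%. Over both lines 1 of 7 fell (*CDKN1B*), against 2.04%. In A431 YAP5SA gave 0 calls among the 7 genes and among all genes (0%) with edgeR's quasi-likelihood test. There 1 of the 7 (*CDK6*) and 828 of all genes had an unadjusted p under 0.05, and DESeq2 called 0 of the 7 as well. Even *YAP1*, which the construct supplies, was not called there (4.36 ± 0.65, FDR = 0.197), so the lack of calls does not show a lack of change. The test of a difference between the lines called 0 of 7 genes for siYAP, against 0.170% of all genes, and 0 of 7 for YAP5SA, against 0.0886%. Unadjusted p values under 0.05 were given by 1 gene for siYAP (*CCNE2*) and by 2 for YAP5SA (*CCND3* and *CDKN1B*). DESeq2 and the likelihood ratio test called *CCNE2* for siYAP (FDR = 0.0167 and 0.0305) and 0 of 7 genes for YAP5SA.

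A second question was how the lines differ under the same treatment, where 3 libraries face 3. With siYAP 8 of the 10 genes differed between HaCaT and A431, 6 higher and 2 lower in HaCaT, where 58.6% of all genes were called. With YAP5SA 7 of 10 differed, 5 higher and 2 lower, against 50.2% of all genes. Both counts of higher genes include *CCND2*, *CDKN2A* and *CDKN2B*. These 3 were measurable only in HaCaT and passed the count filter through that line, so their call as higher was bound to follow. Apart from them, *CCNE2*, *CDKN1A* and *CDK6* were called higher and *CCND3* and *CCNE1* lower in HaCaT with siYAP. With YAP5SA *CCNE2* and *CDKN1A* were called higher and *CCND1* and *CCND3* lower. That the lines differed by more for these 3 than for the others was fixed in the same way. Their folds below are descriptions only.

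*CDKN2B* had 0 counts in all 8 A431 libraries, which hold 222778653 assigned pairs together and allow up to 0.063 to 0.15 CPM per library. Against the highest A431 limit it was at least 1160-fold higher in HaCaT with siYAP and at least 149-fold higher with YAP5SA, the limit of 3 counts being set per library. *CDKN2A* had 16 counts over the 8 A431 libraries and 0 in 4 of them. In HaCaT it was 107 times as high with siYAP (95% counting interval 62.2 to 201, from 13 counts in A431) and at least 42.7-fold higher with YAP5SA. *CCND2* had 15 counts over the A431 libraries and 24172 over the HaCaT libraries. The HaCaT to A431 ratio was 1250 with siYAP (interval 656 to 2730, 9 counts in A431), and with YAP5SA, where A431 held 1 count, it was 8390 with an interval of 1510 to 332000. Such intervals cover counting error only. *MTAP*, the neighbour of *CDKN2A* on the other side from *CDKN2B*, was expressed in both lines, at 180 to 229 CPM in A431 and 56.6 to 104 CPM in HaCaT. *CDKN2B-AS1* was at 0.758 to 2.53 CPM in A431. Gene copies were not measured here.

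The other genes were measurable in both lines. *CCND3* was lower in HaCaT by 1.72 ± 0.13 with siYAP (-1.72, FDR = 9.26e-08) and by 1.09 ± 0.12 with YAP5SA (-1.09, FDR = 7.57e-06), and *CDKN1A* was higher by 0.56 ± 0.16 (FDR = 0.007) and 0.88 ± 0.16 (FDR = 0.000335). *CCNE1* was lower in HaCaT with siYAP (-3.22 ± 0.39, FDR = 7.84e-06) and on the other side of A431 with YAP5SA (0.74 ± 0.30, FDR = 0.0519). *CCNE2* was higher in HaCaT under both (0.91 ± 0.30, FDR = 0.0146, and 0.83 ± 0.27, FDR = 0.0193). *CCND1* was lower in HaCaT with YAP5SA (-0.47 ± 0.13, FDR = 0.0091) and did not pass with siYAP (-0.24 ± 0.13, FDR = 0.134). *CDK6* was higher in HaCaT with siYAP (0.36 ± 0.14, FDR = 0.0395) and did not pass with YAP5SA (0.34 ± 0.14, FDR = 0.0559). *CDKN1B* was at nearly the same level in both lines, with a difference of -0.01 ± 0.09 under siYAP (FDR = 0.95) and -0.18 ± 0.09 under YAP5SA (FDR = 0.116). With the replicate number as a block, since same-numbered YAP5SA libraries of the lines deviated together, *CCNE1* (0.71, FDR = 0.0143) and *CDK6* (0.35, FDR = 0.0441) also passed under YAP5SA. That made 9 of 10, with *CCND2*, *CDKN2A* and *CDKN2B* counted. *CCNE1* and *CDK6* passed too with DESeq2 (FDR = 0.0361 and 0.0218) and the likelihood ratio test (0.0446 and 0.0477). *CCNE1* passed without A431 siYAP replicate 1, A431 YAP5SA replicate 2, HaCaT siYAP replicate 3 or HaCaT YAP5SA replicate 1 (FDR from 0.0129 to 0.0459), and *CDK6* without A431 siYAP replicate 1, A431 YAP5SA replicate 2 or 3 or HaCaT siYAP replicate 3 (FDR from 0.0171 to 0.0485). The *CCNE2* call was lost under siYAP without A431 siYAP replicate 1 (FDR = 0.0602) or HaCaT siYAP replicate 1 (0.0557), and under YAP5SA without A431 replicate 1 (0.076) or HaCaT replicate 2 (0.0664) or 3 (0.0755). The *CDK6* call under siYAP was lost without A431 siYAP replicate 1, 2 or 3 or HaCaT siYAP replicate 1 or 3 (FDR from 0.0609 to 0.092), and with no count filter (0.0864). *CCND1* under siYAP passed without HaCaT siYAP replicate 2 (-0.36, FDR = 0.0343).

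**Figure D3:**
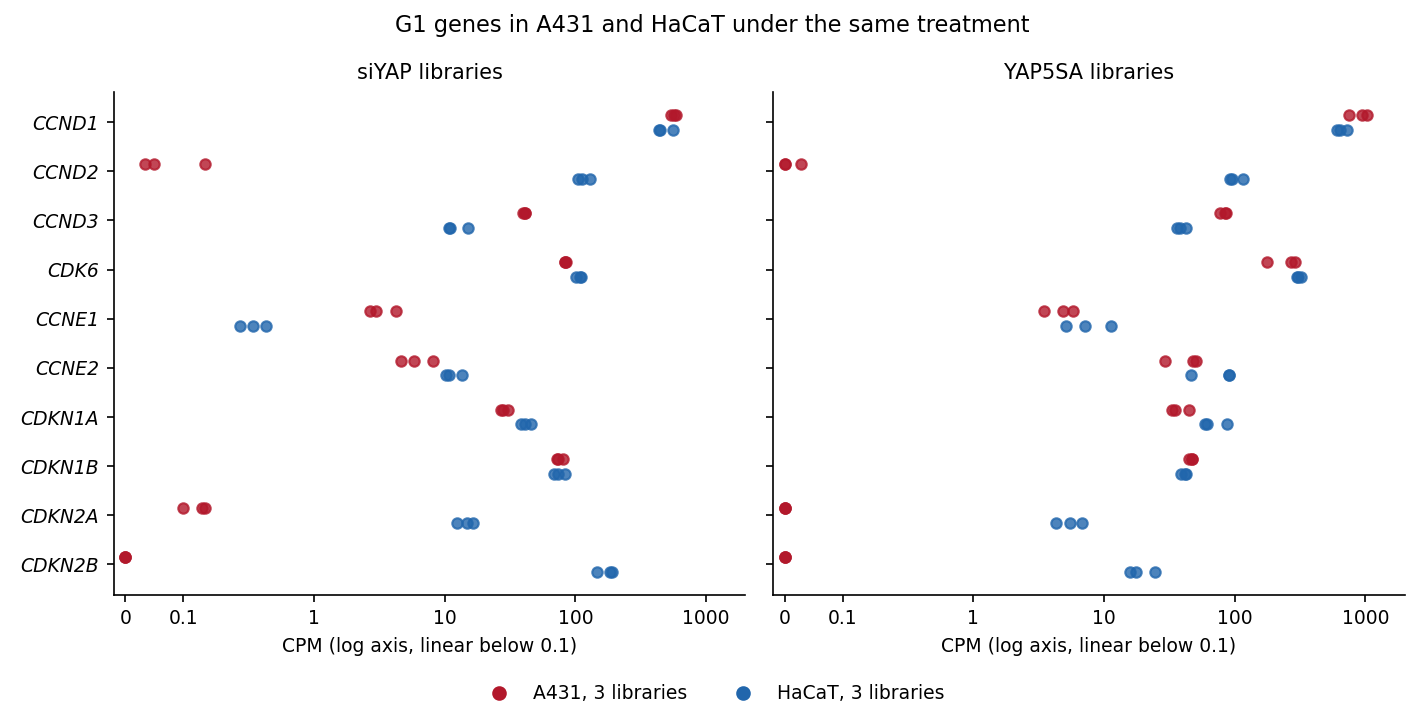
Level in CPM (log axis, linear below 0.1) of each gene in the 3 siYAP and the 3 YAP5SA libraries of A431 (red) and HaCaT (blue). *CCND2*, *CDKN2A* and *CDKN2B* lie at or near 0 in A431 and between 4.28 and 191 CPM in HaCaT. *CCNE1* is lower in HaCaT than in A431 with siYAP and overlaps with it with YAP5SA.

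Libraries with high and with depleted YAP were also set directly against each other, 3 against 3 in each line. In A431, 5 of 7 genes differed, where 34.6% of all genes did: *CCND1* (0.68 ± 0.13, FDR = 0.00174), *CCND3* (1.03 ± 0.12, FDR = 5.98e-05), *CDK6* (1.55 ± 0.14, FDR = 9.03e-06) and *CCNE2* (2.80 ± 0.30, FDR = 2.5e-05) were higher with YAP5SA, and *CDKN1B* was lower (-0.71 ± 0.09, FDR = 0.000107). In HaCaT 9 of 10 differed, where 60.0% of all genes did. The cyclins *CCND1* (0.45 ± 0.13, FDR = 0.0089), *CCND3* (1.66 ± 0.13, FDR = 1.63e-07), *CCNE1* (4.47 ± 0.39, FDR = 4.2e-07) and *CCNE2* (2.72 ± 0.29, FDR = 3e-06), together with *CDK6* (1.53 ± 0.14, FDR = 8.12e-07) and *CDKN1A* (0.72 ± 0.16, FDR = 0.00111), were higher with YAP5SA. The inhibitors *CDKN1B* (-0.88 ± 0.09, FDR = 2.6e-06), *CDKN2A* (-1.39 ± 0.22, FDR = 0.000172) and *CDKN2B* (-3.18 ± 0.19, FDR = 5.43e-07) were lower. *CCND2* did not pass (-0.19 ± 0.14, FDR = 0.254). In A431, *CDKN1A* (0.40 ± 0.16, FDR = 0.0644) passed without HaCaT YAP5SA replicate 2 (FDR = 0.0197) and with each line fitted alone (0.0351).

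These libraries differ in YAP and also in the arm they belong to, siRNA or expression vector, and the effects cannot be told apart in this contrast. The control libraries show how far the arms stand apart with no siRNA against YAP and no YAP5SA, although *YAP1* itself was at 254 CPM with siCTRL and 423 CPM with EV in HaCaT. In HaCaT the EV library was at 8.75 times the siCTRL library for *CCNE2*, 6.02 times for *CCNE1* and 2.80 times for *CCND3*, and at 0.21 of it for *CDKN2B* and 0.382 for *CCND2*. In A431 the ratios were 2.28 for *CCND3* and 1.89 for *CCNE2*. For *CCND3* and *CDKN1A* in both lines and *CCNE2* in HaCaT the control ratio was about as large as the treated one: on the log2 scale 1.19 and 1.03 for *CCND3* in A431, 1.49 and 1.66 in HaCaT, 3.13 and 2.72 for *CCNE2* in HaCaT, and for *CDKN1A* 0.48 and 0.40 in A431 and 0.89 and 0.72 in HaCaT. For *CDK6* it was smaller, 0.13 against 1.55 in A431 and 0.57 against 1.53 in HaCaT, and for *CDKN1B* it was -0.25 against -0.71 and 0.13 against -0.88. Among all genes 36.8% in HaCaT and 9.27% in A431 differed by more than 1 on the log2 scale between their 2 control libraries. With 1 library of each, these ratios have no replicate check.

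**Figure D4:**
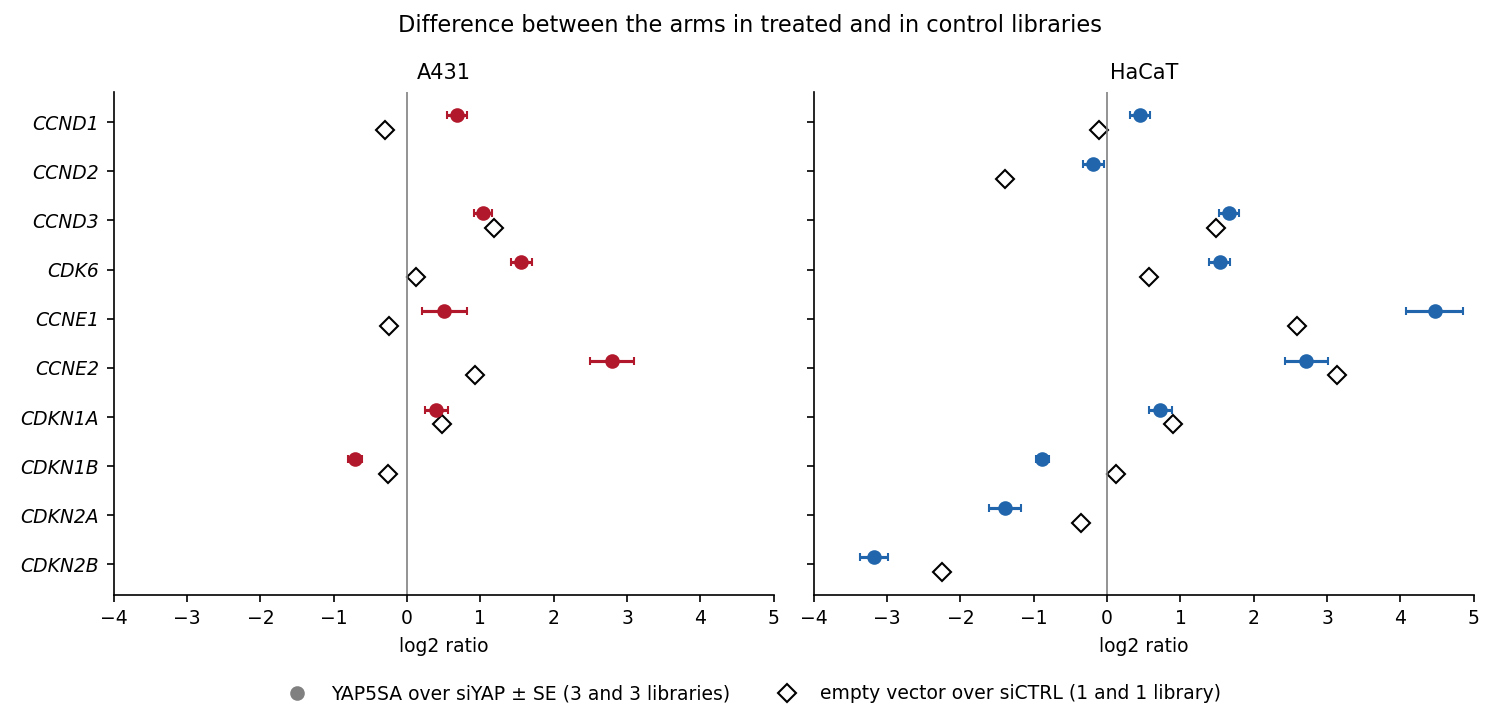
Log2 ratio of YAP5SA to siYAP (filled circles, ± SE, 3 and 3 libraries) and of empty vector to siCTRL (open diamonds, 1 and 1 library, no error available) for the measurable genes in A431 and HaCaT. For *CDK6* the circles lie at 1.55 and 1.53 and the diamonds at 0.13 and 0.57, whereas for *CCNE2* in HaCaT the diamond, at 3.13, lies beyond the circle, at 2.72.

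Of 40 other genes of G1 and S phase entry, 12 were called on depletion over both lines, 10 lower and 2 higher, where 13.0% of all genes were called, with a median log2 fold change of -0.192 against 0.0378 for all genes. *SKP2*, whose product marks p27 for degradation, fell by 1.41 ± 0.13 (-1.41, FDR = 2.7e-05) and *E2F1*, an activator of S phase genes, fell by 1.33 ± 0.34 (-1.33, FDR = 0.0236), while *CDKN2D*, another INK4 inhibitor, rose by 1.47 ± 0.31 (FDR = 0.00785). In A431 5 of the 40 fell and 2 rose (5.60% of all genes called, median -0.221, all genes 0.029), and in HaCaT 4 fell and 0 rose (5.66% of all genes called, median -0.19, all genes 0.0283). *E2F2* (-1.70 ± 0.38, FDR = 0.0209) and *E2F1* (-1.56 ± 0.40, FDR = 0.04) were among those of A431, and *SKP2* (-1.53 ± 0.18, FDR = 0.000463), *E2F5* (-1.41 ± 0.29, FDR = 0.0122) and *CDC25A*, a phosphatase that activates CDK2 (-1.28 ± 0.35, FDR = 0.0476), among those of HaCaT. With YAP5SA 0 of 40 were called in A431 (0% of all genes called, median 0.188, all genes 0.0198) and 0 over both lines (2.04% called, median 0.132, all genes 0.0338). In HaCaT 2 rose and 0 fell (13.6% of all genes called, median 0.0212, all genes 0.0134), namely *E2F3* (0.73 ± 0.21, FDR = 0.0341) and *AMBRA1*, an adaptor for the degradation of D-type cyclins (0.63 ± 0.15, FDR = 0.0173).

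Of 30 p53 targets other than *CDKN1A*, or regulators of p53, 4 fell and 1 rose on depletion over both lines (13.0% of all genes called, median 0.0956, all genes 0.0378), with *C12orf5* (TIGAR, -0.89 ± 0.16, FDR = 0.00345) and *RRM2B*, a ribonucleotide reductase subunit (-0.72 ± 0.14, FDR = 0.00563), among those that fell. With YAP5SA in HaCaT 3 rose and 3 fell (13.6% called, median 0.112, all genes 0.0134), the largest being *CDIP1* (2.68 ± 0.54, FDR = 0.0102) and *TP53INP1* (-1.72 ± 0.21, FDR = 0.00131). In A431 0 of 30 were called with YAP5SA and 2 fell with siYAP (5.60% of all genes called), *C12orf5* (-1.06 ± 0.23, FDR = 0.0195) and *MDM2*, which degrades p53 (-0.48 ± 0.11, FDR = 0.0278). In HaCaT with siYAP 2 fell and 0 rose (5.66% of all genes called), *AEN* (-1.30 ± 0.27, FDR = 0.0133) and *RRM2B* (-1.07 ± 0.20, FDR = 0.00825).

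The same lists were also counted between the lines and between the arms. Of the 40 genes of G1 and S phase entry, 26 were lower and 2 higher in HaCaT than in A431 with siYAP, and 10 were lower and 13 higher with YAP5SA, where 58.6% and 50.2% of all genes were called. *CCNA2*, encoding cyclin A2, was lower with siYAP (-3.07 ± 0.21, FDR = 3.43e-08), as was *E2F1* (-3.07 ± 0.37, FDR = 7.17e-06). Of the same 40, 21 were higher and 4 lower with YAP5SA than with siYAP in A431, and 31 higher and 2 lower in HaCaT, against 34.6% and 60.0% of all genes called, led in both lines by *CDC6*, a licensing factor of DNA replication (2.24 ± 0.24, FDR = 2.4e-05, and 5.26 ± 0.28, FDR = 7.48e-09). The p53 list gave 5 higher and 10 lower in A431 and 11 higher and 10 lower in HaCaT for the same contrast. For HaCaT against A431 it gave 7 higher and 14 lower (siYAP) and 7 higher and 12 lower (YAP5SA). These are to be read against the same shares of all genes. YAP5SA against siYAP also sets the vector arm against the siRNA arm, and the effects cannot be told apart. Against EV, YAP5SA called 2 of the 40 G1 and S phase genes in HaCaT and 0 in A431.

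Across the 16 libraries, with levels centred within each line on the log2(CPM + 0.5) scale, the genes most like each of the 10 were found by Pearson correlation. Likeness was closest for *CDKN2B* with *OLFM4* (0.995) and *ASAH1* (0.992), which rests on the 8 HaCaT libraries, and for *CDK6* with *ICMT* (0.989). *CCND3* was most like *GSTP1* (0.985) and *IFI35* (0.976), *CCNE1* most like *NME1* (0.985) and *RCC1* (0.981), and *CCNE2* most like *GINS3*, a subunit of the replication fork complex GINS, and *KIAA1033* (0.985 each). *CDKN2A* was most like *TLCD2* and *PROC* (0.963 each), *CDKN1B* most like *COL4A5* (0.957) and *ALCAM* (0.953), and *CCND1* most like *PHF23* (0.943) and *AJUBA* (0.937). *CDKN1A* was most like *XDH* and *SLCO1B3* (0.933 each) and *CCND2* most like *CDIP1* (0.911) and *NUP214* (0.906). In A431 *CDKN2A* and *CCND2* were each at 0 to 0.147 CPM, so their likeness also rests mainly on the 8 HaCaT libraries. The points share their arms and libraries, and the genes named were picked as the highest of all, so these values are descriptions.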

How the data were processed

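RNA-seq of A431 and HaCaT cells was read from 1 table of estimated counts deposited by the authors, with 26229 genes and 16 libraries, every column of which was used. Per the methods and the labels, paired reads of 100 bp were trimmed to 75 bp and quantified against RefSeq gene models of hg19 with RSEM (1.2.21 in the methods, 1.2.11 in the submitters' processing notes). Strand is not given in the sources used here. Groups came from the sample labels, as did the replicate numbers of the treated libraries. Among the controls only the A431 siCTRL label gives a number. The other controls were entered as replicate 1 by assignment.

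Rounding to whole numbers preceded the analysis with edgeR 4.0.16 (R 4.3.3), which kept the 14673 genes averaging over 10 counts. TMM factors were 0.9135 to 1.074. The quasi-likelihood test was applied to 1 model of 8 groups with 8 residual degrees of freedom (common biological coefficient of variation 0.174). The FDR is the Benjamini-Hochberg adjusted p over all genes of a comparison, and calls required an FDR below 0.05 together with logCPM over 1, the thresholds of the study's methods. SE is the log2 fold change divided by the square root of F. Folds against groups at 0 used 3 counts per library. Replicate libraries differed beyond sampling noise in all pairs. In A431 with YAP5SA, chi-square per degree of freedom was 78 and 71.8 for replicate 1 against 2 and 3. Between replicates 2 and 3 it was 6.75. The script was tested on simulated data. DESeq2 1.42.0 served as an alternative. Figures and sequence searches used Python 3.11.15 with pandas 2.3.3 and matplotlib 3.10.9.

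The 10 genes were fixed by name. The genes, the 2 lists, the motifs and the tests were chosen with earlier results of these data known, and the rule for a measurable gene after the values were seen. Other genes named are the 2 most like each of the 10 (1 is not reported here), up to 3 called genes with the largest change per list and comparison, *YAP1*, *EGFR*, *MTAP* and *CDKN2B-AS1*. Whether replicate numbers pair libraries was checked by the correlation of deviations from the group means: between the YAP5SA libraries of the lines it was 0.398, 0.162 and 0.162, over 0.1 in all 3 pairs, so the block is printed there. Promoters came from RefSeq (GRCh38.p14). Since the counts use hg19, no gene coordinates are given.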

Additional observations from a re-analysis of the deposited data

Results flagged for a closer look

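The response of *CCNE2* to YAP depletion had opposite signs in the lines. All 3 siYAP libraries were below the control in A431 (4.60, 8.07 and 5.84 against 18.0 CPM) and all 3 were above it in HaCaT (13.6, 10.3 and 10.8 against 7.70 CPM). The difference of the log2 effects was 2.14 ± 0.60 (SE) with an FDR of 0.176 in edgeR's quasi-likelihood test, so it did not pass there, whereas it passed with DESeq2 (2.13, FDR = 0.0167) and the likelihood ratio test (2.13, FDR = 0.0305). With both control libraries as 1 group the effects had the same sign, -1.71 in HaCaT (FDR = 0.0576) and -2.08 in A431 (FDR = 0.121).

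The response of *CCND3* to YAP5SA also differed in sign, all 3 A431 libraries being below EV (77.0, 85.6 and 84.9 against 90.0 CPM) and all 3 HaCaT libraries above it (38.0, 36.0 and 42.1 against 26.3 CPM). The difference of the log2 effects was 0.68 ± 0.25 (SE) and did not pass (FDR = 0.142). With both control libraries as 1 group both effects were positive, 0.35 in A431 and 1.11 in HaCaT.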

How the results depend on the processing

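Each result was recomputed with DESeq2, with both control libraries of a line as 1 group, with RLE size factors, without the count filter, with a filter of 10 counts in each library, with the lines fitted apart, with the likelihood ratio test, with the replicate number as a block, and without each treated library in turn. Lifting the limit on logCPM was counted among the alternatives as well. It could change no call, since all 10 genes were over that limit in the analysis reported. Of the values of single genes, 1837 kept their direction and side of the threshold, 44 newly passed, 46 no longer passed and 40 changed sign. The 1837 include those of the lifted limit. None of the 40 that changed sign was called in the analysis reported or passed under the alternative, and the 26 outside the omission of a library are given here. Of 40 group levels 4 moved by more than 1 SD. Counts of called genes moved by over 1.5 times as follows. With both controls together, siYAP called 1 gene in A431 (instead of 3), 2 in HaCaT (instead of 1) and 5 over both lines (instead of 2), and YAP5SA called 2 over both lines (instead of 1). With no count filter YAP5SA called 0 over both lines. DESeq2 and the likelihood ratio test each called 1 gene, *CCNE2*, for the difference of the siYAP effects (instead of 0). With more than 10 counts in every library, HaCaT against A431 under siYAP gave 4 (instead of 8), since this filter removes *CCND2*, *CDKN2A* and *CDKN2B*, which are near 0 in A431, and *CCNE1*, which is low in HaCaT with siYAP. Without 1 library at a time, siYAP called 0 to 3 genes in A431, 0 to 2 in HaCaT and 1 to 3 over both lines. YAP5SA called 0 to 1, 3 to 4 and 0 to 2. The differences between the lines gave 0 to 0 (siYAP) and 0 to 1 (YAP5SA), HaCaT against A431 gave 6 to 9 under each treatment, and YAP5SA against siYAP gave 5 to 6 in A431 and 9 to 9 in HaCaT.

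Signs changed (log2 scale) with both controls as 1 group for siYAP in *CCND3* (-0.68 in A431, -0.56 in HaCaT, -0.62 over both lines), *CDKN1A* (-0.20 in A431, -0.012 over both lines) and, in HaCaT, *CCND2* (0.36), *CCNE2* (-1.71) and *CDKN2B* (0.52). For YAP5SA in A431 they did so in *CCND3* (0.35), *CCNE1* (-0.039) and *CDKN1A* (0.20), and for the difference of the effects in *CDK6* (siYAP, -0.23) and *CCNE2* (YAP5SA, 0.29). With the replicate block they changed for *CDKN2B* (siYAP, HaCaT, 0.048), for YAP5SA in A431 in *CCNE1* (-0.35), *CCNE2* (-0.034) and *CDKN1A* (0.025), for *CCNE2* in HaCaT (-0.20), and over both lines for *CCNE1* (-0.076) and *CCNE2* (-0.12). With no count filter they changed for *CDKN1A* (YAP5SA, A431, 0.0043) and *CCND1* (difference of the YAP5SA effects, -0.022). *CDKN1B* changed sign for the difference of the siYAP effects with 10 counts in each library (0.0052), and for HaCaT against A431 under siYAP with DESeq2 (0.0097), RLE factors (0.011) and that filter (0.054). Without 1 library at a time, values near 0 ran from -0.023 to 0.099 (*CDKN1A*, siYAP, A431), from -0.079 to 0.27 (*CCNE1*, YAP5SA, A431), from -0.16 to 0.058 (*CDKN1A*, YAP5SA, A431), from -0.084 to 0.087 (*CDKN1B*, HaCaT against A431 under siYAP), and, for differences of effects, from -0.084 to 0.064 (*CDKN1B*, siYAP), -0.0048 to 0.052 (*CDK6*, siYAP), -0.12 to 0.094 (*CCND1*, YAP5SA) and -0.37 to 0.099 (*CCNE2*, YAP5SA).

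Correlations of deviations between libraries with the same replicate number ran from -0.064 to 0.398 over all 18 pairs, 6 of them over 0.1. Apart from the YAP5SA libraries of the lines, no 2 groups were over 0.1 in every replicate. Single pairs were, namely replicate 3 of A431 siYAP with HaCaT siYAP (0.257) and with HaCaT YAP5SA (0.179), and replicate 2 of HaCaT siYAP with HaCaT YAP5SA (0.112). Whether these libraries share more than a number is not known. All control libraries entered the block as replicate 1, although only the A431 siCTRL label gives that number. Block values against a control therefore rest on an assigned pairing. With the replicate block *CCNE1* passed for siYAP over both lines (-1.36, FDR = 0.0111), and YAP5SA called 0 genes over both lines (*CDKN1B*, FDR = 0.148). Outside HaCaT against A431 under YAP5SA, the block changed no other call. Depth limits *CCNE1* in HaCaT with siYAP (7 to 13 counts) and *CCND2*, *CDKN2A* and *CDKN2B* in A431.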
